A study of Mus musculus with 6 samples.

Results

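The genes for the mitochondrial ribosomal proteins were taken by symbol: every gene whose symbol on the array's platform annotation begins with Mrpl or Mrps and a digit. There were 76 such genes among the 18193 genes with a probe set of their own, 47 named Mrpl for the large subunit and 29 named Mrps for the small subunit. Each gene was represented by the probe set with the highest mean over the 6 arrays. All 76 entered the tests, and no filter on low values was applied.

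The data are Affymetrix expression arrays of mesenchymal stem cells of the mouse, which are stromal precursors of fat, bone and cartilage, obtained from a company. All cultures, controls included, had received an adipogenic medium again 48 h earlier, with rosiglitazone (1 µM), dexamethasone (1 µM), insulin (5 µg/ml) and, at 100 µM, 3-Isobutyl-1-methylxanthine, a phosphodiesterase inhibitor. The irradiated cultures were exposed for 2 h to broadband terahertz pulses of 35 fs, centred near 10 THz, at 1 kHz and an average of 1 mW/cm2. In each of 3 experiments 1 irradiated culture stood beside 1 unexposed control, both at 26 to 27 °C, and RNA was taken at the end of the exposure. The data therefore are 3 irradiated and 3 control arrays, and the experiment number is the replicate number of the labels. The question was which transcripts change in a culture during the exposure, measured against the control beside it. The experiments are described as independent and biological, and the labels name no mouse strain, sex, age or passage.

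Mitochondria translate the few proteins encoded in their own DNA, all of them subunits of the respiratory chain and ATP synthase, on a ribosome of their own. Its RNAs are mitochondrial, while all of its proteins are encoded in the nucleus, made in the cytosol and imported. Some of these proteins have a counterpart in the bacterial ribosome, and others are found only in mitochondria. In fat cells the mitochondria oxidize fatty acids and supply citrate for fat synthesis, and their number grows as precursor cells turn into fat cells. Transcription factors known to act on promoters of nuclear genes for mitochondrial proteins include NRF1, the ETS factor GABP and YY1.

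With irradiation, no mitochondrial ribosomal protein gene passed the test, and the fitted changes were small. In a limma fit blocked on experiment, 0 of the 76 genes passed adjusted p 0.05, and percent called over all 45037 probe sets was also 0%. At an unadjusted p under 0.05 the count was 1 of 76, against 4.97% of all probe sets. Fitted changes, given throughout as irradiated minus control on the log2 scale, ran from -0.20 to 0.067, which is 0.871-fold to 1.05-fold. The 95% interval lay inside 1.5-fold in both directions for all 76 genes (97.2% of all probe sets). Over the 76 intervals the lowest limit was -0.38, for Mrpl54, and the highest 0.27, for Mrpl28.

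Most of the small changes were negative. Of the 76 genes 63 had a negative difference, 12 a positive one and Mrpl2 was at 0, and 47.6% of all probe sets were negative. The median over the 76 genes was -0.045, against 0.0033 over all probe sets and 0 over the 8054 genes whose mean level lay in the same range. In that last set 49.3% of genes were negative. The pair medians were -0.07 in experiment 1, -0.09 in experiment 2 and 0.01 in experiment 3, so the negative median was seen in 2 of the 3 experiments. Without replicate 3 the median was -0.0725 with 69 genes negative, without replicate 2 it was -0.0275 with 53 negative, and without replicate 1 it was -0.04 with 57 negative. A set of 3 pairs cannot give a two-sided p below 0.25 in an exact sign-flip test, and no p is given for the group.

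**Figure D1:**
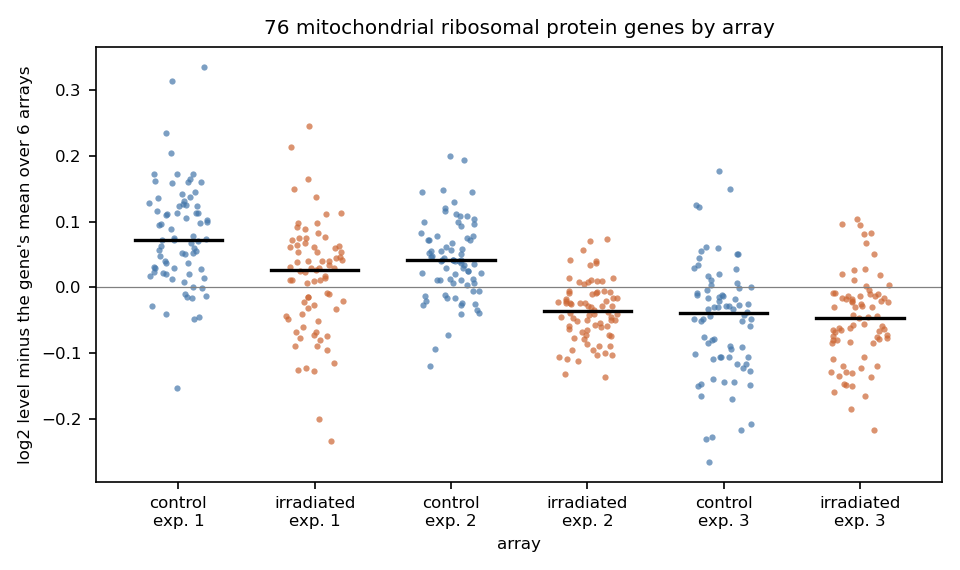
Level of each of the 76 genes on each array minus the same gene's mean over the 6 arrays (log2, vertical axis), with 1 point per gene, control arrays in blue, irradiated arrays in orange and a black bar at the median. The irradiated array lies lower than its control in experiments 1 and 2, and both arrays of experiment 3 lie near each other below 0.

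The mean level of the 76 genes moved little between arrays. Control and irradiated means were 9.53 and 9.47 (experiment 1), 9.50 and 9.42 (experiment 2) and 9.40 and 9.40 (experiment 3). Both subunits showed the same order of arrays: the Mrpl mean was 9.61 on control array 1 and 9.49 on irradiated array 3, and the Mrps mean 9.40 and 9.27. Single genes varied little as well. Their SD over the 6 arrays had a median of 0.0824, from 0.0237 for Mrpl34 to 0.225 for Mrps2, while the median over genes in the same level range was 0.111. Of the sum of squares of the 76 genes, the experiment took 68.1%, irradiation 15% and the residual 17%, against 65.5%, 11.8% and 22.7% over all probe sets. These shares are not divided by degrees of freedom, of which irradiation has fewer than the experiment or the residual. All 76 genes had a mean level above 4.84, the median probe set, and their means ran from 6.70 for Mrps27 to 11.71 for Mrps6. Probe sets bind with different strength, so levels of different genes cannot be ranked from these values.

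Mean levels of the fat-cell and leukocyte marker lists also stood apart between the arms. The mean of the 7 measured fat-cell markers, among them Adipoq and Fabp4, was 10.48 to 10.56 in controls and 10.34 to 10.37 in irradiated cultures. The mean of the 8 macrophage and leukocyte markers, such as Csf1r and Lyz2, was 11.03 to 11.21 in controls and 11.23 to 11.29 in irradiated cultures. Neither list mean overlapped between the arms. Of all single probe sets 6.73% did not overlap, and no such share was computed for means of lists. Fitted changes ran from -0.48 (Cidec) to 0.02 (Lep) in the fat-cell list and from 0.04 (Lyz2) to 0.27 (Cd14) in the leukocyte list. No marker passed adjusted p 0.05 by limma, and the part of these markers in the ribosomal protein values was not tested. Of the 9 measured mesenchymal markers 8 stood above the median probe set, with Thy1 below it, so most labelled stromal markers were present. Above it were also 6 of the 7 fat-cell markers, with leptin (Lep) below, and all 8 leukocyte markers. Of 4 endothelial markers Kdr stood above it, at 5.60, and Pecam1, Cdh5 and Tek below. Of 4 epithelial markers Epcam stood above it, at 7.52, and Cdh1, Krt8 and Krt18 below. In bulk RNA fewer cells of a type and less RNA per cell cannot be told apart. The spike-in probe sets averaged 11.6 on control array 3 and between 11.1 and 11.3 elsewhere.

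Among the large subunit genes the lowest p belonged to Mrpl54, a protein with no bacterial counterpart. Control and irradiated levels were 8.49 and 8.27 in experiment 1, 8.60 and 8.45 in experiment 2, and 8.62 and 8.39 in experiment 3. All 3 irradiated arrays were below all 3 controls. The change was -0.20 ± 0.08 (SE, n = 3 pairs), with an unadjusted p of 0.037 and an adjusted p of 0.929 by limma. A second, dim probe set of Mrpl54, with a mean level of 4.69, was at -0.27 ± 0.09, its pairs differing by -0.20, -0.44 and -0.16. The 2 probe sets of this gene therefore had the same sign in every pair.

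Mrps6, counterpart of bacterial protein S6, was next in order of p. Its level was 11.76 and 11.58 in experiment 1, 11.85 and 11.68 in experiment 2, and 11.76 and 11.60 in experiment 3, control first. The irradiated arrays again lay below all controls. The change was -0.17 ± 0.07 (limma adjusted p = 0.929), from pairs that differed by -0.18, -0.17 and -0.16. Its other probe set, with a mean level of 10.56, was at -0.21 ± 0.07, its pairs differing by -0.24, -0.22 and -0.17. The annotated interval of Mrps6 overlaps that of Slc5a3, the gene of an inositol transporter, and where the probes lie was not examined. Such overlap with another protein-coding gene holds for 19 of the 76 genes.

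The remaining genes with the smallest p on the lower side were Mrpl47, Mrpl1, Mrps7, Mrpl20, Mrpl48 and Mrpl19, and none passed. Mrpl47, counterpart of bacterial L29 beside the exit of the peptide tunnel, was at -0.14 ± 0.08, with pair differences of -0.16, -0.17 and -0.08. Mrpl1, the protein of the stalk where spent tRNA leaves the ribosome, was at -0.13 ± 0.08. Mrps7, a protein of the small subunit's head, and Mrpl20 were both at -0.11 ± 0.08. Mrpl48, which has no bacterial counterpart, was at -0.11 ± 0.08 with pair differences of -0.20, -0.13 and 0. Mrpl19, a large subunit protein at the contact with the small subunit, was at -0.10 ± 0.08. Adjusted p by limma was 0.929 to 0.933 for these 6 genes. Other probe sets, some of them dim, differed in sign for Mrpl47, Mrpl1 and Mrpl19. Over its probe sets the change ran from -0.16 to 0.047 for Mrpl47 and from -0.13 to 0.013 for Mrpl1. For Mrpl19 it ran from -0.10 to 0.20. The probe sets of Mrpl48 were all negative.

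On the higher side no gene exceeded 0.067. This was Mrpl28, a counterpart of bacterial L28, at 0.067 ± 0.082, with pair differences of -0.06, 0.13 and 0.13. Mrps35 was at 0.027, Mrps27, a protein with pentatricopeptide repeats that bind RNA, at 0.023, and Mrps9, Mrpl49 and Mrpl14 each at 0.020. Mrpl50 was at 0.017 and Mrpl52 at 0.013. Adjusted p by limma was 0.957 to 0.991 for these 8 genes, and the sign of Mrpl50 and Mrpl52 turned with median centring. No gene was higher in all 3 pairs, which 12.6% of all probe sets were. A lower irradiated level in all 3 pairs was seen in 24 of 76 genes, against 11.2% of all probe sets.

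All 3 irradiated arrays lay below all 3 controls for 6 genes, against 3.1% of all probe sets, and none lay above them. Groups that do not overlap in either direction made up 6.73% of all probe sets. The 6 were Mrpl54, Mrps6, Mrpl12, Mrpl55, Mrps18a and Mrps22. Mrpl12, the stalk protein that recruits translation factors, had levels of 10.38 and 10.22, 10.26 and 10.18, and 10.27 and 10.21 in experiments 1 to 3, control before irradiated. The lowest control and the highest irradiated array of Mrpl12 were 0.04 apart, and its change was -0.10 ± 0.08. Mrps22, a small subunit protein without a bacterial counterpart, had levels of 9.54 and 9.46, 9.57 and 9.45, and 9.48 and 9.45. Its change was -0.077 ± 0.075. Mrpl55 was at -0.093 and Mrps18a at -0.09.

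**Figure D2:**
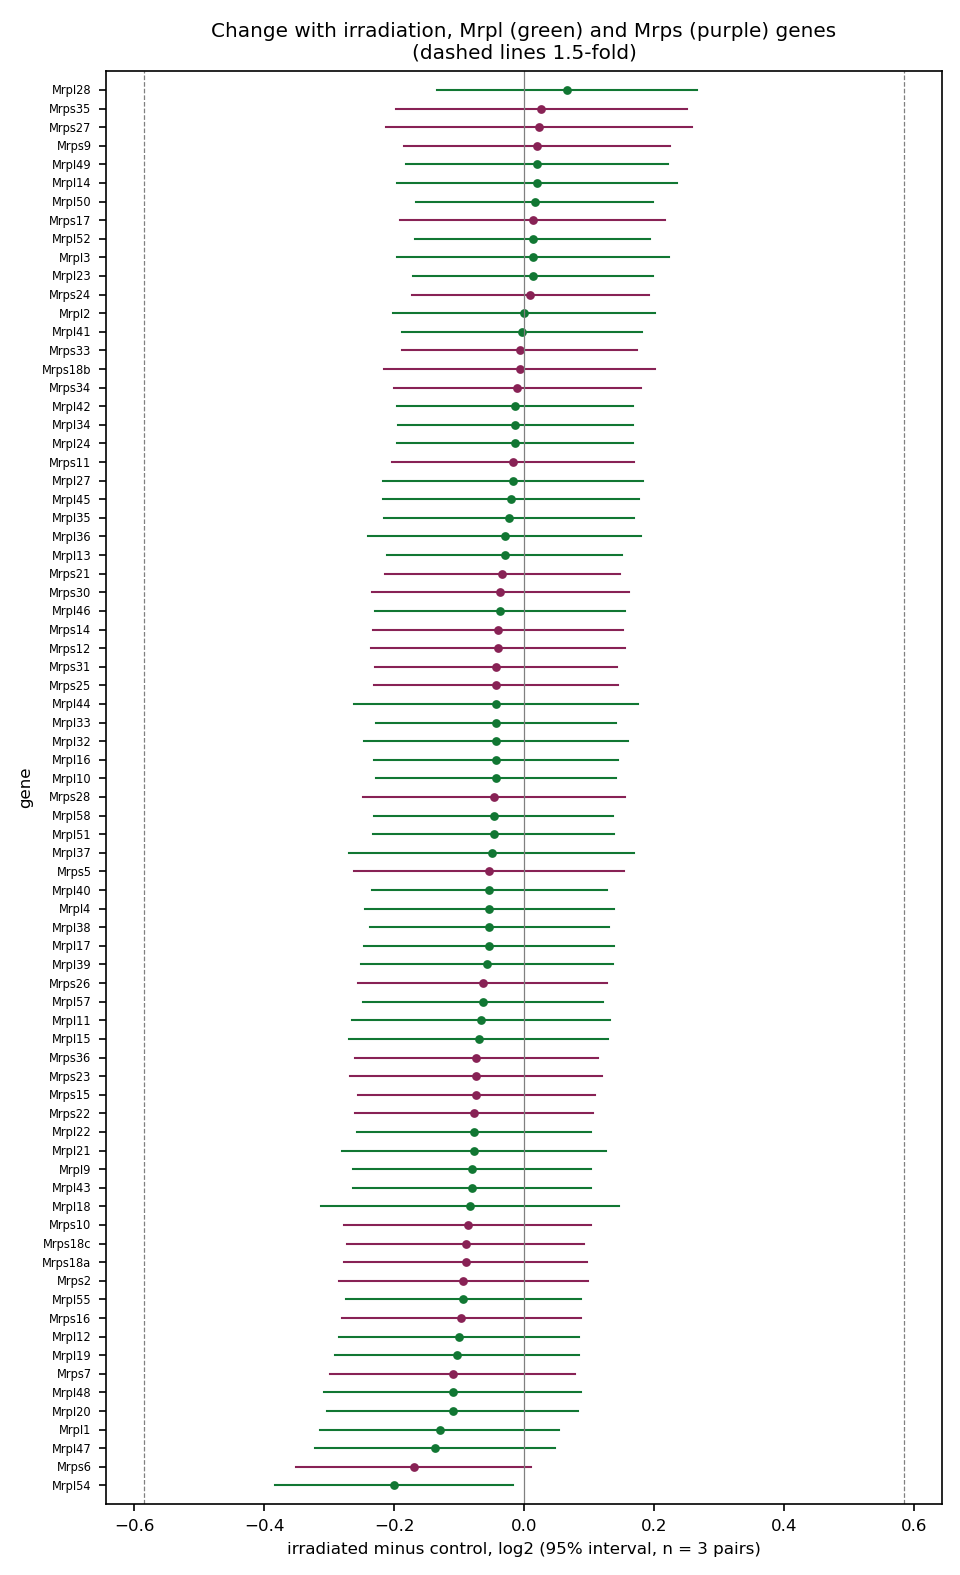
Irradiated minus control for the 76 genes (log2, horizontal axis) with 95% intervals of the limma fit over 3 pairs, ordered by size, with Mrpl genes in green and Mrps genes in purple. Of the 76 intervals, that of Mrpl54 alone leaves out 0, and none reaches the dashed line at 1.5-fold.

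The medians were close to each other across subunits and across proteins of different origin. The median was -0.047 over the 47 Mrpl genes, of which 39 were negative, and -0.043 over the 29 Mrps genes, of which 24 were negative. Among proteins of the large subunit the median was -0.043 for the 28 measured genes with a bacterial counterpart and -0.047 for the 19 found only in mitochondria. The latter group includes Mrps30, a protein of the large subunit in spite of its name. In the small subunit the medians were -0.047 over 17 genes and -0.043 over 9. Mrpl30 and Mrpl53 are on the lists and have no probe set of their own here. Mrpl55, Mrps18a and Mrps36 were put in none of these 4 groups. In all 4 groups 0 genes passed the test.

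The 3 genes of the S18 family code for related proteins, which descend from bacterial S18. Mrps18b and Mrps18c belong to the small subunit and Mrps18a to the large one. Mrps18a had levels of 9.47 and 9.42, 9.55 and 9.39, and 9.44 and 9.38, control first. Those of Mrps18c were 10.72 and 10.59, 10.62 and 10.56, and 10.53 and 10.45. Both had a change of -0.09. Mrps18b had levels of 9.03 in both cultures of experiment 1, 9.11 and 8.97 (experiment 2) and 8.84 and 8.96 (experiment 3). Its change of -0.0067 joined pair differences of opposite sign, and without replicate 2 it was 0.06. None of the 3 passed the limma test (adjusted p of 0.941 or above).

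Promoters of these genes were searched for letters that the factors named above are known to bind, and for 3 common promoter elements. Of the 76 genes 67 have an entry in the RefSeq promoter table (GRCm38.p6), with 73 windows from 250 bases before to 50 after the transcript start. On either strand the NRF1 letters GCGCA and GCGC with any 1 base between them were in 16.4% of these windows against 4.6% of all 32851 windows, and the ETS letters CCGGAAG in 34.2% against 8.86%. The YY1 letters AANATGGCG were in 15.1% against 2.38%, the GC box GGGCGG in 53.4% against 35.7%, and the TATA box TATAAA in 6.85% against 13.6%. The E-box CACGTG was in 9.59% against 7.15%. Windows of cytosolic ribosomal protein genes held the ETS letters in 34.7% and the NRF1 letters in 5.56%. In the same windows the YY1 letters were in 11.1%, the GC box in 56.9%, the TATA box in 9.72% and the E-box in 11.1%. These matches are a description of the letters and show no binding.

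The 150 bases before the start are shown for 5 genes whose values are given above or below and whose stretch holds NRF1 or ETS letters, which were chosen for that and stand in capitals. Mrpl12 (chr11:120484487-120484636, plus strand) and Mrpl44 (chr1:79775868-79776017, plus strand) have the NRF1 letters, Mrpl12 as read on the other strand.
Mrpl12: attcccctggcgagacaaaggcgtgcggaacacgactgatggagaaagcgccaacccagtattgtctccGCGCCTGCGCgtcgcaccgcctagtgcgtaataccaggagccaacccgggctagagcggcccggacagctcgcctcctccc
Mrpl44: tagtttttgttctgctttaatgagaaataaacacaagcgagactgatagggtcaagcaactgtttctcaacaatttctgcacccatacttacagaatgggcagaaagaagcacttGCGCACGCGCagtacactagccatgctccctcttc
Mrps18a (chr17:46110854-46111003, plus strand), Mrps22 (chr9:98601680-98601829, minus strand) and Mrpl22 (chr11:58171514-58171663, plus strand) have the ETS letters.
Mrps18a: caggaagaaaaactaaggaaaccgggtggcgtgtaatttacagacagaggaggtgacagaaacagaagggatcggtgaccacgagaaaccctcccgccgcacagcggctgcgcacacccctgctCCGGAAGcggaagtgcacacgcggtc
Mrps22: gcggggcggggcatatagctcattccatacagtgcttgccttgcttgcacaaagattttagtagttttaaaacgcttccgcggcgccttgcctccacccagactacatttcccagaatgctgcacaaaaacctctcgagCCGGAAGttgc
Mrpl22: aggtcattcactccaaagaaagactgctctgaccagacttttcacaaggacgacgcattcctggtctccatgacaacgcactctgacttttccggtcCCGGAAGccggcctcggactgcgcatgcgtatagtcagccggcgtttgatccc
The median change with irradiation was -0.048 over the 12 genes with the NRF1 letters and -0.043 over the 55 without, and -0.053 over the 25 genes with the ETS letters and -0.043 over the 42 without. For the YY1 letters the order was the other way, with -0.023 over 11 genes with them and -0.05 over 56 without. These differences between medians were not tested.

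Levels were also compared between the experiments, which took the larger part of the sum of squares. The same limma fit was used, and its error rests on the 2 arrays of each experiment. Of the 76 genes 0 passed adjusted p 0.05 between experiments 2 and 1, where 0.52% of all probe sets did. The count was also 0 between experiments 3 and 1 (3.05% of all probe sets) and between experiments 3 and 2 (0.0355% of all probe sets). Between experiments 3 and 1 the count at an unadjusted p under 0.05 was 7 of 76, or 9.21%, against 19.1% of all probe sets. The comparisons share experiments, so they are not independent of each other.

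Most of these genes had lower fitted levels in experiment 3 than in experiment 1, none past the test. The median of experiment 3 minus experiment 1 was -0.105, and 61 of 76 genes were negative, against 51.5% of all probe sets. Over the 8054 genes of the same level range the median was -0.075 and 64.3% were negative. Both arrays of experiment 3 lay below both of experiment 1 for 49 genes, against 25.8% of all probe sets, and above them for 6, against 21.7%. The median of experiment 2 minus experiment 1 and that of experiment 3 minus experiment 2 were both -0.05. As a check of RNA quality, the Gapdh 3' probe set exceeded the 5' one by 0.19 and 0.23 on the arrays of experiment 1, and the same difference was -0.05 to -0.01 on the other 4. For Actb it was also highest in experiment 1, at 0.75 and 0.76, with 0.72 on control array 3 and 0.61 to 0.62 on the other 3. Their part in these differences was not tested. On irradiated arrays alone the median of experiment 3 minus experiment 1 was -0.06, and on control arrays alone -0.11.

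The largest difference between experiments belonged to Mrps2, the counterpart of bacterial S2 in the small subunit. Its levels, control first, were 9.11 and 9.01 (experiment 1), 8.83 and 8.66 (experiment 2) and 8.59 and 8.58 (experiment 3). The 3 experiments did not overlap, and the share of all probe sets with all 3 apart was not counted. For experiments 3 and 1 alone, 25.8% of all probe sets had both arrays of experiment 3 below both of experiment 1. Experiment 3 minus experiment 1 was -0.475 ± 0.096, with an unadjusted p of 0.0024 and an adjusted p of 0.063 by limma. A dimmer probe set of Mrps2, with a mean level of 6.09, was at -0.07 in the same comparison, so the difference was not shared by both. The call turned with the prior: with an intensity trend in limma's prior the adjusted p was 0.0079.

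Mrpl44, a large subunit protein with the fold of an RNA-cutting enzyme, followed. Its levels were 8.81 and 8.64 (experiment 1), 8.47 and 8.38 (experiment 2) and 8.21 and 8.34 (experiment 3). Experiment 3 minus experiment 1 was -0.45 ± 0.11 (limma adjusted p = 0.10), and its other 3 probe sets were at -0.44, -0.515 and -0.21. All 4 probe sets of Mrpl44 thus had one sign. The pair differences of this gene were -0.17, -0.09 and 0.13, so the arms did not move one way.

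Further genes lower in experiment 3 were Mrpl47 and Mrps9, both with a difference of -0.30, and Mrpl22 and Mrps35, both with -0.26. Mrpl22 lines the peptide tunnel, and its level was 9.97 and 9.91, 9.82 and 9.73, and 9.72 and 9.64 in the 3 experiments. Mrps9, which in bacteria touches the tRNA in the peptidyl site, had 4 probe sets between -0.425 and -0.215. The 3 probe sets of Mrpl47, of which 1 stood at or above the median level, ran from -0.30 to 0.165. Mrpl51 was at -0.245 and had an adjusted p of 0.23 by limma. Its 3 probe sets, all at or above the median level, ran from -0.245 to 0.37, so they differed in sign. With an intensity trend in the prior, 6 of the 76 genes passed adjusted p 0.05 between experiments 3 and 1: Mrps2, Mrpl44, Mrpl47, Mrpl22, Mrpl51 and, in the other direction, Mrpl38. Under that setting 7.85% of all probe sets passed, so the count is near the background. With only probe sets at or above the median level 2 members passed, Mrps2 and Mrpl44, against 11.2% of the probe sets tested. Without the irradiation term 1 did, Mrps2, against 4.14% of all probe sets.

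Mrpl38, a protein of the large subunit's central protuberance, had its lowest levels in experiment 1. Its levels were 7.80 and 7.72 (experiment 1), 8.01 in both cultures of experiment 2, and 8.13 and 8.05 (experiment 3). Experiment 3 minus experiment 1 was 0.33 ± 0.09 (limma adjusted p = 0.13). The next in this direction were Mrps11 at 0.15, Mrps25 at 0.14, Mrpl54 at 0.125, Mrpl49 at 0.115 and Mrpl24 at 0.10, and none passed. For Mrps11 the mean of its probe sets had the opposite sign, -0.018.

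**Figure D3:**
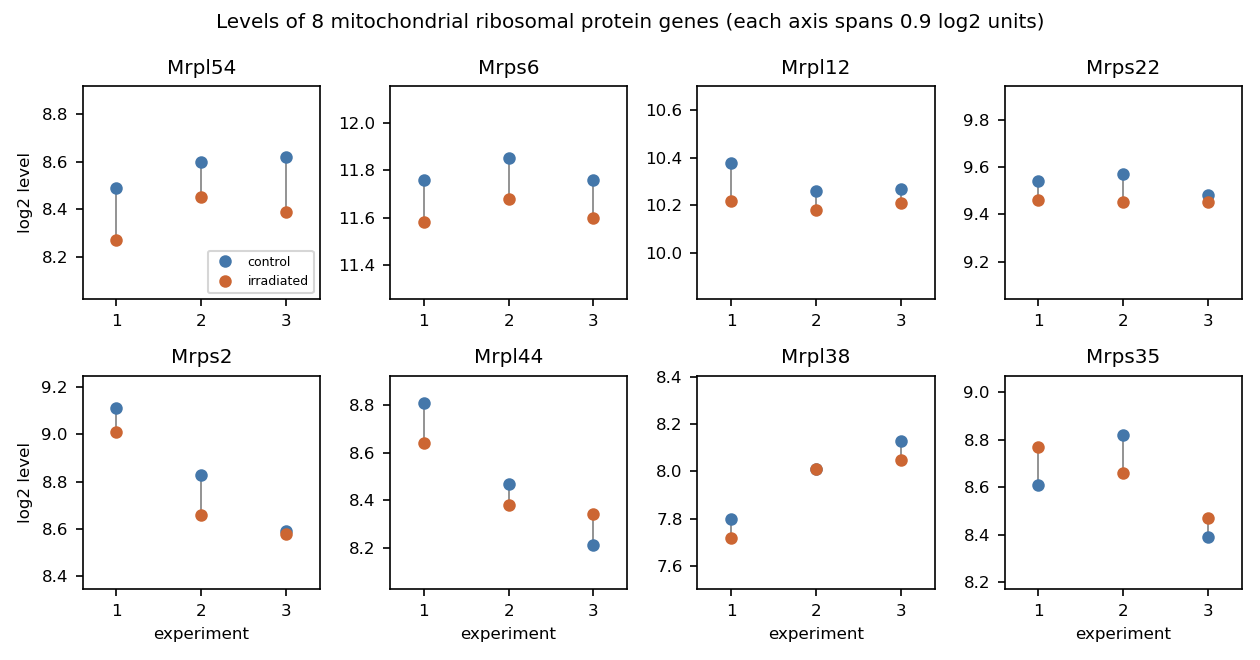
Log2 level (vertical axis, spanning 0.9 units in each panel) of 8 genes in the 3 experiments, with controls in blue, irradiated cultures in orange and a grey line joining the cultures of 1 experiment. In the upper row every irradiated point lies below its control, as these genes are from those with all irradiated arrays below all controls. The lower row holds genes named for large differences between experiments. There Mrps2 and Mrpl44 are highest and Mrpl38 lowest in experiment 1, and Mrps35 is lowest in experiment 3.

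Between experiments 3 and 2 the largest values were those of Mrps35 and Mrps5, and neither passed. Mrps35 had levels of 8.61 and 8.77 (experiment 1), 8.82 and 8.66 (experiment 2) and 8.39 and 8.47 (experiment 3), so both arrays of experiment 3 were the lowest. Experiment 3 minus experiment 2 was -0.31 ± 0.11. Mrps5, counterpart of a bacterial protein that affects the accuracy of decoding, was at -0.295 ± 0.105, with levels of 7.90 and 7.74 in experiment 2 and 7.48 and 7.57 in experiment 3. Adjusted p by limma was 0.47 and 0.46. The others named by the rule on this side, Mrpl51, Mrps2, Mrpl50 and Mrps34, lay between -0.195 and -0.15. On the higher side Mrps12 at 0.105 was the largest, followed by Mrpl20, Mrpl38, Mrps25, Mrpl23 and Mrps36 between 0.07 and 0.09. Between experiments 2 and 1 the largest values were -0.315 for Mrps2, -0.30 for Mrpl44 and 0.25 for Mrpl38, and the other named genes Mrps9, Mrpl19, Mrpl22 and Mrpl47 were between -0.175 and -0.165. On the higher side of that comparison were Mrpl54, Mrpl36, Mrpl49, Mrps6 and Mrps11, between 0.09 and 0.145.

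No other gene of mitochondrial translation on the lists passed the test with irradiation. Of 4 measured ribosomal proteins with other symbols 2 were negative, Chchd1 being at 0.13 ± 0.08 and Gadd45gip1 at -0.12 ± 0.08. Of 11 translation factors 8 were negative with a median of -0.037. The elongation factor Gfm1 was at -0.14 ± 0.08, and Mtfmt, which formylates the initiator tRNA, at 0.19 ± 0.09. In the assembly and rRNA modification list 11 of 23 were negative, with a median of 0, where the GTPase Gtpbp10 was at 0.21 ± 0.13 and the helicase Ddx28 at -0.13 ± 0.08. Of 16 mitochondrial aminoacyl-tRNA synthetases, which load tRNAs with amino acids, 10 were positive with a median of 0.012. Pars2 was at 0.18 ± 0.11 and Vars2 at 0.12 ± 0.08. In the 12 genes of mitochondrial transcription and mRNA handling 6 were negative, with Trmt10c at -0.09 ± 0.08 and Pnpt1 at 0.11 ± 0.11. In all of these lists 0 genes passed over all probe sets, and adjusted p by limma was 0.929 or above.

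The cytosolic ribosomal proteins and the respiratory chain gave the nearest comparison. Over 45 cytosolic ribosomal protein genes the median was 0.0067 with 15 negative, and the pair medians were 0.02, 0 and 0.02. Over 81 nuclear genes of the respiratory chain and ATP synthase the median was -0.057 with 67 negative, and the pair medians were -0.08, -0.05 and -0.03. The mitochondrial ribosomal proteins thus had a median close to that of the respiratory chain genes, and in experiment 3 their pair median was 0.01. In both sets 0 genes passed, and the difference between the sets was not tested.

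**Figure D4:**
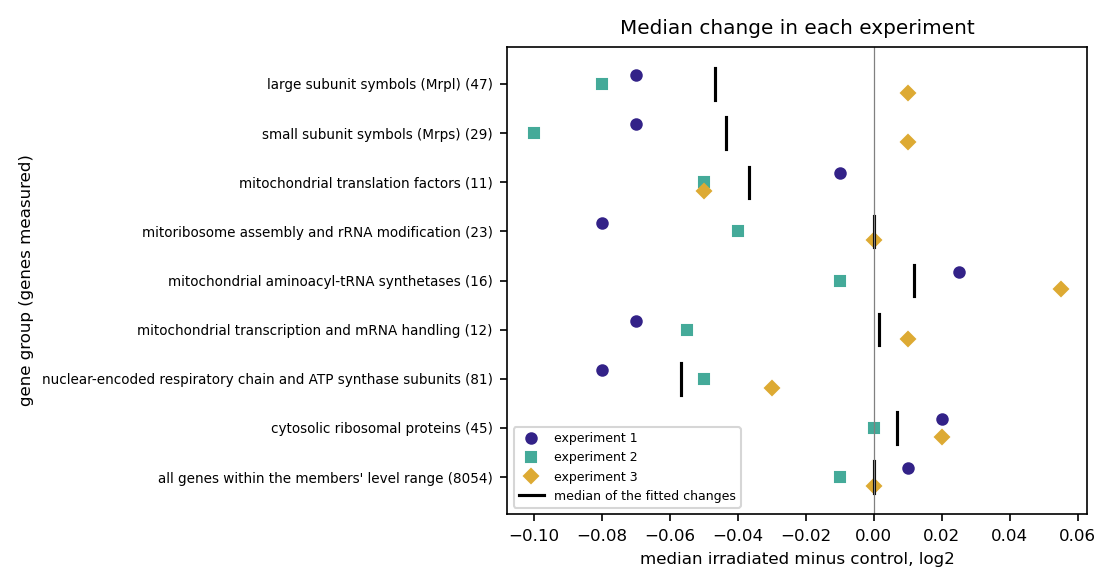
Median irradiated minus control (log2, horizontal axis) of each gene group in experiments 1, 2 and 3 (symbols) and of its fitted changes (black bar), with the number of genes in brackets. The Mrpl and Mrps medians lie below 0 in experiments 1 and 2 and at 0.01 in experiment 3, and those of the respiratory chain lie below 0 in all 3.

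Among regulators of mitochondrial biogenesis, Ppargc1b and Pprc1, members of the PGC-1 coactivator family, were on opposite sides. Ppargc1b had levels of 8.61 and 8.23, 8.04 and 7.67, and 7.84 and 7.80 in experiments 1 to 3, control first, and its change was -0.26 ± 0.10. Pprc1 had levels of 7.56 and 7.70, 7.46 and 7.61, and 7.24 and 7.64, and its change was 0.23 ± 0.09. Adjusted p by limma was 0.929 for both. Of the 9 regulators 7 were negative with a median of -0.08, and 0 passed. Between experiments 3 and 1, Ppargc1b was at -0.60 ± 0.12 (limma adjusted p = 0.061) and Myc, a transcription factor that drives ribosome production, at 0.595 ± 0.130 (limma adjusted p = 0.076).

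Between experiments 3 and 1 negative differences were counted in the other lists of mitochondrial gene expression, against 51.5% of all probe sets and 64.3% of the genes in the level range given above. They were found in 4 of 4 ribosomal proteins with other symbols, 10 of 11 translation factors, 14 of 23 assembly genes, 11 of 16 synthetases and 11 of 12 genes of transcription and mRNA handling. The counts for assembly genes and synthetases lay near the share in the level range. Of the 66 measured genes of these lists only Mrm1, a methyltransferase of the mitochondrial rRNA, passed, against 3.05% of all probe sets. Mrm1 had a rise of 0.635 ± 0.101 (limma adjusted p = 0.032). Its levels were 6.79 in both cultures of experiment 1, 7.12 and 7.29 (experiment 2) and 7.44 and 7.41 (experiment 3), and without replicate 2 its adjusted p was 0.21, in a fit of 4 arrays that called 0 probe sets in all. Ptcd3, a small subunit protein with pentatricopeptide repeats, was at -0.475 ± 0.091 (limma adjusted p = 0.055). Lrpprc, which stabilizes mitochondrial mRNAs, was at -0.405, the RNA polymerase Polrmt at -0.40, Iars2 at -0.39, Ears2 at -0.46, Guf1 at -0.41, Gfm1 at -0.35, Ddx28 at -0.335 and Chchd1 at -0.21, and none of these passed.

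The choice of probe set mattered for single genes. The 76 genes have 156 probe sets of their own, and 42 genes have more than 1. For 12 of these 42 all probe sets had the same sign with irradiation, and for 9 of the 33 genes with more than 1 probe set at or above the median level. When the probe sets of each gene were averaged, 55 of the 76 genes were negative, and the median was -0.036. No member probe set passed with irradiation, and 4 of 156 had an unadjusted p under 0.05, against 4.97% of all probe sets. The 4 were both of Mrpl54, and 1 each of Mrps6 and Mrpl27, all negative.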

How the data were processed

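Per the submitters' processing notes the authors used RMA, affy and limma, with no version or order given; the deposited levels are log2 values, a base inferred from RMA and stated nowhere in the file. RMA also corrects background and equalizes the arrays. What moves every transcript alike is therefore not visible. The file holds 45101 probe sets; 64 Affymetrix controls were left out of the tests.

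Genes were named from the platform annotation, and 34945 probe sets have 1 symbol. All 76 members were found by Entrez identifier in a RefSeq table (GRCm38.p6). limma 3.58.1 in R 4.3.3 was fitted to all 6 arrays with the experiment as a fixed block and irradiation as a term, two-sided, with Benjamini-Hochberg adjustment over 45037 probe sets. The fit has 2 residual degrees of freedom before moderation, so precision is limited by the number of arrays. Over members, standard errors of the change have a median of 0.077. The study's design pairs each irradiated culture with its control, and deviations of paired arrays from their group means correlated with r = 0.629, 0.142 and 0.505 over all probe sets.

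Members named in the text were, for irradiation, the 8 with the smallest unadjusted p in each direction, and for each pair of experiments the 6 with the largest difference in each direction; the S18 family and, of each other list, 2 genes per comparison were added. The members and lists were chosen with earlier results of these data known. Cytosolic ribosomal proteins were taken by symbol without kinase genes and pseudogenes. Alternatives were no block or a random block, the mean of probe sets, array weights, a robust prior or one with an intensity trend, median centring, quantile normalization, only the brighter probe sets, 1 arm alone, no irradiation term, and each experiment left out.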

Additional observations from a re-analysis of the deposited data

How the results depend on the processing

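For irradiated minus control, 0 of 76 genes passed under every limma setting run. With no replicate block the count was also 0, so the block changed no call. The median was the same -0.045 there, as it must be with 1 control for each irradiated culture. The median ranged from -0.065 with median centring to -0.036 with the mean of probe sets, and from -0.0725 to -0.0275 when 1 replicate was left out. The number of members called between experiments 3 and 1 was 0, and it was 6 with an intensity trend in the prior, 2 with only probe sets at or above the median level, and 1 with no irradiation term. Over all probe sets the same comparison gave 1374 calls, and 3534, 2513 and 1866 under these settings. The median of experiment 3 minus experiment 1 was -0.06 on irradiated arrays only. Leaving out a replicate gave no called member, and such fits of 4 arrays called 0 probe sets in all, so they say nothing about stability.

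Signs of small changes turned in a few cases, none of them past the test. With median centring Mrpl50 was at -0.0033 and Mrpl52 at -0.0067 for irradiation. With the mean of all probe sets of the gene, Mrps9 was at -0.023 and Mrpl19 at 0.0225 for irradiation, Mrps11 at -0.0075 and Mrpl47 at 0.0083 between experiments 2 and 1, Mrps11 at -0.0175 between 3 and 1, and Mrpl38 at -0.13 and Mrpl51 at 0.023 between 3 and 2. When 1 replicate was left out the irradiation change ranged from -0.065 to 0.075 for Mrpl14, from -0.015 to 0.085 for Mrpl49, from -0.005 to 0.03 for Mrpl50, from -0.07 to 0.06 for Mrps18b, from -0.08 to 0.105 for Mrps27, from -0.04 to 0.12 for Mrps35, from -0.045 to 0.075 for Mrps9 and from -0.025 to 0.21 for Pnpt1. The causes were not tested. Scaling moved the median of all probe sets by at most 0.02. All alternatives were planned.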

Other observations

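Mrpl15, a counterpart of bacterial L15, has 8 probe sets, and a dim one was the single member probe set past adjusted p 0.05 in any comparison of the fit. It was picked out after its values were seen. Its level was 5.66 and 5.78 in experiment 1, 5.24 and 5.22 in experiment 2, and 4.55 and 4.92 in experiment 3, control before irradiated. Experiment 3 minus experiment 1 was -0.985 ± 0.121 (limma adjusted p = 0.014). Another Mrpl15 probe set, with a mean level of 7.28, was at -0.865 (limma adjusted p = 0.051). The 4 brightest probe sets of the gene were between -0.20 and -0.10 in the same comparison, and none of these 4 passed. A further Mrpl15 probe set, with a mean level of 5.66, was at 0.07. The probe sets of Mrpl15 thus differed in size and in sign for the same gene.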
